A study of Mus musculus with 12 samples.

Results

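The 39 genes described here encode proteins that copy DNA or that commit a cell to doing so, and all 39 were among the 12158 genes of the deposited expression table. They were chosen by gene symbol: 4 genes of origin recognition and licensing, 6 subunits of the MCM helicase, 4 genes of helicase activation, 4 of primase and the DNA polymerases, 6 of the sliding clamp and its loader, 2 of single-strand DNA binding, 2 of Okazaki fragment joining, 4 of deoxynucleotide supply, 2 of replication-coupled histone deposition and 5 regulators of entry into S phase. The table holds polyA RNA-seq of bulk forebrain from C57BL/6N mice in 44 libraries: 8 at e12.5, 9 at e14.5, 10 at e17.5, 11 at P0 (the day of birth) and 6 from adults older than postnatal day 56. The mice carried Chd8+/del5, a germline mutation of one copy of the chromatin remodeller gene Chd8, or were their wild-type (WT) littermates; no source used here gives their sex or says whether animals were pooled. The labels list 10 RNA records, a WT and a Het record for each stage, but nothing in them says which of the 44 libraries was which. Genotype was therefore not assigned, no comparison of Het with WT was made, and each stage below holds libraries of both genotypes as far as the labels say.

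Replication starts when the origin recognition complex, Cdc6 and Cdt1 load the ring of Mcm2 to Mcm7 onto DNA during G1. In S phase Cdc45 and the GINS complex turn that ring into an active helicase, primase and polymerase alpha lay down primers, and the sliding clamp Pcna, opened by replication factor C, tethers polymerases delta and epsilon to the template. In the developing forebrain this machinery serves the progenitors that line the ventricles, while neurons have left the cell cycle. Several of its proteins also work in DNA repair, which goes on in cells that no longer divide. Many genes of the group are textbook targets of E2F transcription factors, which release them in late G1.

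Promoter windows were read from RefSeq (GRCm38.p6), each 250 bases before to 50 bases after a gene start. The windows matched 33 of the 39 genes, in 38 windows, with no entry for Gins1, Gins2, Rfc2, Pole, Ccne2 and Mcm4. An E2F-type motif was searched on both strands as any of TTTCCCGC, TTTGGCGC, TTTCGCGC and TTTGCCGC, forms that can overlap on opposite strands. It was in 34.2% of the genes' windows, against 2.26% of all 32851 windows of the same length and 3.86% of the windows of genes in the expression table. The 13 genes that held it were Cdc6, Cdt1, Orc1, Mcm3, Mcm5, Mcm6, Mcm7, Pola1, Pold1, Rfc3, Lig1, E2f2 and Cdk2. CCAAT, searched on both strands, was in 60.5% of the genes' windows, 37.5% of the windows of genes in the expression table and 37.4% of all windows. TTTGAA, the core of the cell cycle homology element of G2/M genes, was in 10.5% of the genes' windows, 11.2% of the windows of genes in the expression table and 17.9% of all windows. The same E2F-type letters were in none of the windows of the pair of genes that fell most from e14.5 to the adult, Rrm2 and Tk1, nor in those of the pair with the least negative differences, Rfc1 and Ccne1. The 250 bases before the start of these 4 genes are printed, with capitals for the E2F-type and CCAAT letters. The last 50 bases of each window were searched as well but are not printed. In Rfc1 they hold a further CCAAT match, at position 34 after the start. Mcm6 and Cdc6 follow as windows that do hold the E2F-type letters; both were chosen after their values were seen.
Rrm2: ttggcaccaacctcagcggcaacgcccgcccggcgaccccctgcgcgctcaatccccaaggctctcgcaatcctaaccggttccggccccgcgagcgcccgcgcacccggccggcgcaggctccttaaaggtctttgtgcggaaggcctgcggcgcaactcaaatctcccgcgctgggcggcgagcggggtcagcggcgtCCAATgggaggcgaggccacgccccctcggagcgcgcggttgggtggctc
Tk1: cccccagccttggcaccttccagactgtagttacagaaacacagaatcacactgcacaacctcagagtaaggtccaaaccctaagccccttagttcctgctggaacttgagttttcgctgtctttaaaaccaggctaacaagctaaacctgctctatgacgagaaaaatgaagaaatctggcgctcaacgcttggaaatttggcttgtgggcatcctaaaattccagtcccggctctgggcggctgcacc
Rfc1: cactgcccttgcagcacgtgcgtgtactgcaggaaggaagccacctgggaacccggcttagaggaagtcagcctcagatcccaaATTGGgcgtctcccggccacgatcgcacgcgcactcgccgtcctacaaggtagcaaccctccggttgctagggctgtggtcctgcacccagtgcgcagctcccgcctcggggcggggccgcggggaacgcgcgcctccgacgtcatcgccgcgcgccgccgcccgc
Ccne1: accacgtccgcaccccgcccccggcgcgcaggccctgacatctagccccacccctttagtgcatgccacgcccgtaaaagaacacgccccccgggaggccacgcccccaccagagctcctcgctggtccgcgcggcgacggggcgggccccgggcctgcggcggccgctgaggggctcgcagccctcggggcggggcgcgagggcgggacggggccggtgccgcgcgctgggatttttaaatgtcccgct
Mcm6: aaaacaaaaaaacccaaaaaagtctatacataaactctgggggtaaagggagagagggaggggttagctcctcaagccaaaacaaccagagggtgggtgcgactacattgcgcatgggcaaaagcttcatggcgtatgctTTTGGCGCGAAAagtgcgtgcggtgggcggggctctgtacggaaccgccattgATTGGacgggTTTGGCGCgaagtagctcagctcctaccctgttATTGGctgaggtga
Cdc6: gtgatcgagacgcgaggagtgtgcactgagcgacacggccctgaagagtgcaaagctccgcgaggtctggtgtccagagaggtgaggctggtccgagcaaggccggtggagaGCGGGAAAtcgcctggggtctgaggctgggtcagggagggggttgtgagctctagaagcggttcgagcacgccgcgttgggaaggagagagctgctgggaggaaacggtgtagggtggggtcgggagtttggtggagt

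Each base run is written 5′ to 3′ on the strand of its gene. In GRCm38.p6 they lie as follows: Rrm2 at chr12:24708004-24708253 (plus strand), Tk1 at chr11:117826015-117826264 (minus strand), Rfc1 at chr5:65335640-65335889 (minus strand). The others lie as follows: Ccne1 at chr7:38107491-38107740 (minus strand), Mcm6 at chr1:128359706-128359955 (minus strand), Cdc6 at chr11:98907901-98908150 (plus strand). The Mcm6 run held 3 E2F-type matches, of which 2 overlap on opposite strands, and 2 CCAAT matches; the Cdc6 run held 1 E2F-type match. Among the 33 genes with a window, the 13 with an E2F-type match differed between adult and e14.5 by −4.44 to −2.18 (log2), with a median of −3.20. The 20 without one spanned −5.42 to 0.54, with a median of −2.46. These matches describe letters in a window and do not mark bound sites.

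Levels are the deposited log2 RPKM values (base 2 was inferred from low values of e14.5 and P0 libraries, and the folds rest on it), so they are per transcript length and can be set beside each other between genes. They are written as the median over the libraries of a stage with the lowest and the highest library in brackets. A gene was called lower or higher at a stage where the ranges of the stages compared did not overlap; this is a description of these libraries and no test. The share of all 12102 genes with a mean above −2 that met the same rule is given as the background; all 39 genes passed that filter. Where nothing says that libraries came from separate animals, their spread may be technical. Bulk tissue cannot separate fewer cells of a type from less RNA per cell.

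Chd8 had a median of 4.31 [3.90 to 4.96] at e12.5, 4.01 [3.62 to 4.69] at e14.5, 3.94 [3.70 to 4.50] at e17.5, 4.14 [3.69 to 4.60] at P0 and 3.72 [3.08 to 4.15] in the adult, and the ranges of all 5 stages overlapped. Markers of forebrain identity were present at every stage: Tbr1, a cortical neuron factor, had a median of 5.66 [5.48 to 6.02] at e12.5 and 5.91 [5.50 to 6.27] in the adult. Lhx2, a cortical patterning factor, had 7.23 [6.93 to 7.43] and 4.85 [4.75 to 5.28], and Dlx1, of the ventral forebrain, 5.51 [4.67 to 5.91] and 2.72 [2.52 to 4.03]. At e12.5 both ends of each fragment were sequenced (100 bp), and at the later stages 1 end (50 bp), so read layout and stage cannot be told apart in any difference from e12.5. Markers of red blood cells, 5 of 6 of which were in the table, summed to 1687 to 4589 RPKM at e12.5 and 63.2 to 529 at e14.5. The part of blood RNA in the differences between these stages was not tested. Sequencing depth is unknown, since the values are already scaled to library size.

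Most of the replication genes fell at e14.5, at e17.5 and in the adult, and fewer did at P0. At e14.5, 34 of 39 were lower than at e12.5, 0 were higher and 5 overlapped, with a median difference of −1.10 (log2) against 0.03 over all genes. Of all genes, 22.3% were lower and 23.1% higher by the same rule. At e17.5, 35 of 39 were lower than at e14.5 and 0 higher, with a median difference of −1.04 against −0.03; the background was 12.1% lower and 13.1% higher. At P0, 11 of 39 were lower than at e17.5 and 0 higher, with a median difference of −0.46 against −0.00 and a background of 6.28% lower and 4.89% higher. With the 5 e17.5 libraries numbered S158 to S163 in the table alone, 20 were lower, and with the 5 numbered S1 to S5 alone, 11. The 6.28% is for all 10 e17.5 libraries. Ranges of fewer libraries part more easily for any gene, so the counts from each number series have no matching background here. At the step to the adult, 26 of 39 were lower than at P0, 5 were higher and 8 overlapped. The median difference was −1.53 against −0.01. The background of that step was 25.2% lower and 29.3% higher. The 5 higher genes are thus fewer than that share of all genes would give. Set directly against e14.5, the earliest stage with the same read layout, 37 of 39 were lower in the adult, 0 were higher and E2f1 and Ccne1 overlapped. That median difference was −2.83 against −0.10 over all genes, with 32.4% of all genes lower and 30.8% higher.

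All 39 genes had their highest stage median at e12.5. In 33 the median was lower at each of the 4 later stages than at the one before, and in 38 this held for the 3 steps up to P0, the exception being Chaf1b with 0.05 (log2) more at P0 than at e17.5. The lowest stage was the adult for 34 genes and P0 for 5. These profiles were not counted over all genes, so the counts have no background. The step from e12.5 also carries the change of read layout. The middle gene of the group stood at 5.05 log2 RPKM at e12.5, 4.16 at e14.5, 3.37 at e17.5, 2.91 at P0 and 1.66 in the adult. Summed over the 39 genes, a median library held 1961 RPKM at e12.5 [1821 to 2213], 891 at e14.5 [775 to 1072], 465 at e17.5 [402 to 534], 360 at P0 [318 to 393] and 196 in the adult [186 to 273].

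**Figure D1:**
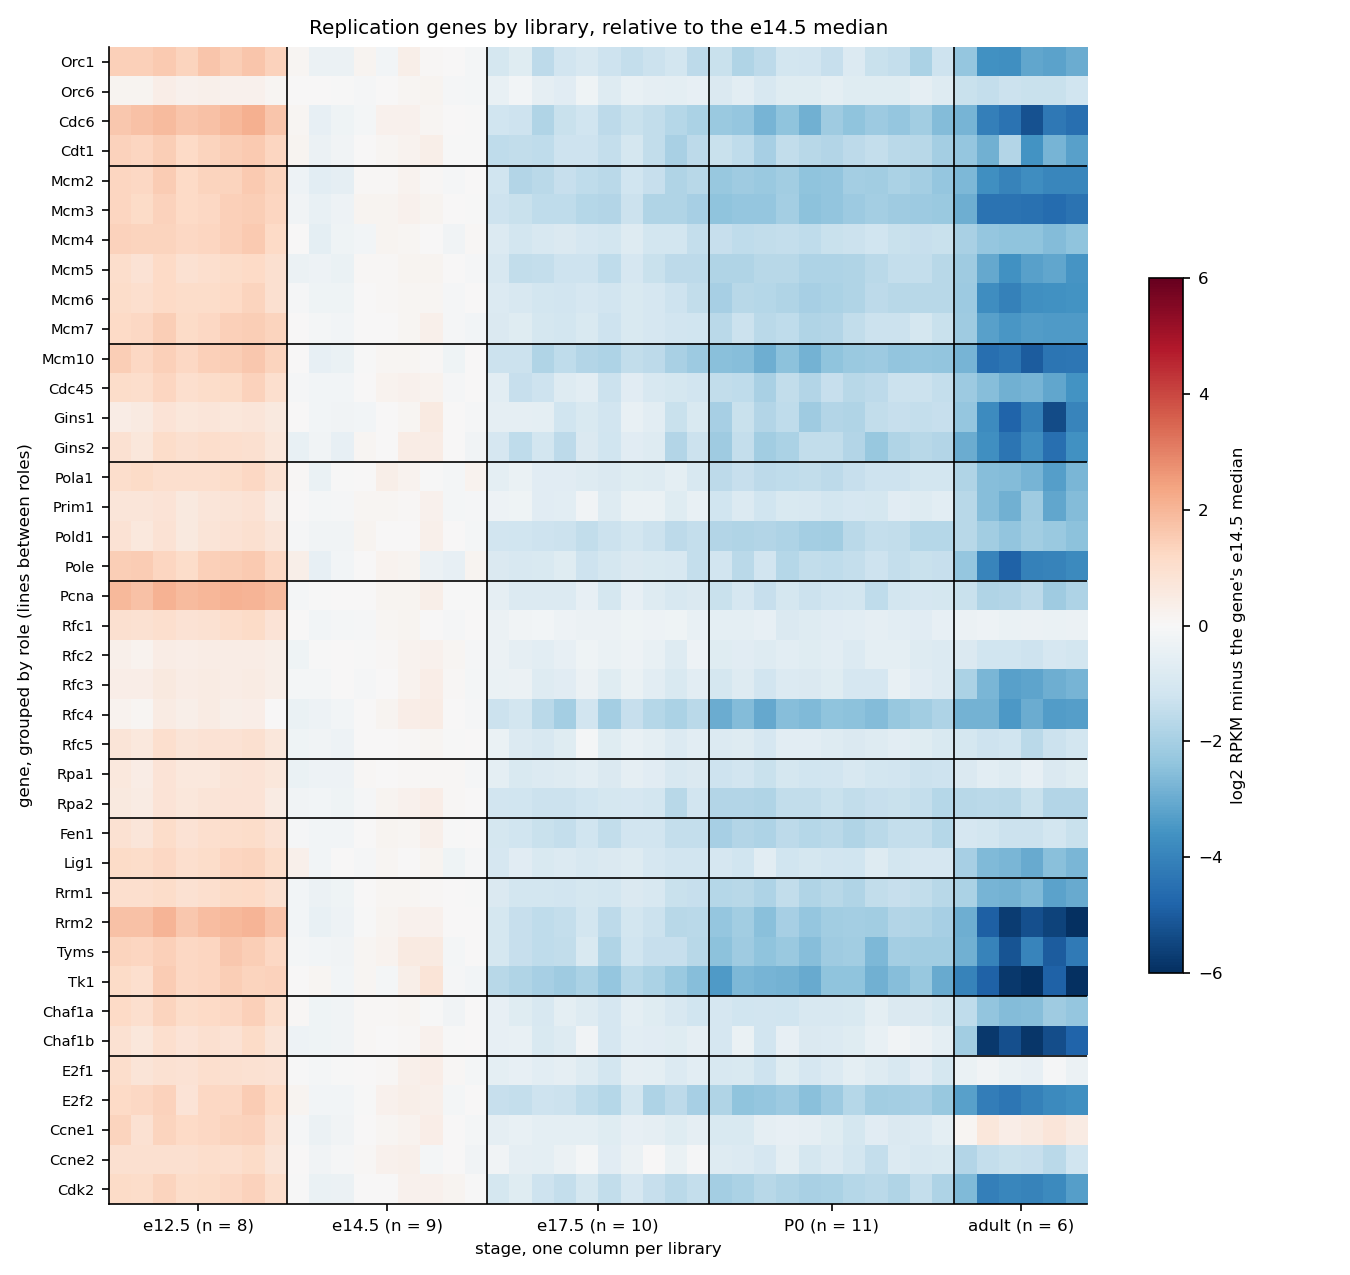
The 39 replication genes (rows, grouped by role) in the 44 libraries (columns, grouped by stage), coloured by log2 RPKM minus the gene's e14.5 median. The columns darken to blue from e12.5 to the adult, except in rows such as Rfc1, Rpa1, E2f1 and Ccne1, and the leftmost adult column is paler than the other 5 in most rows.

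The licensing genes covered a wide range of levels and of change. All 4 were lower in the adult than at e14.5, as were 32.4% of all genes. Cdc6, the loader that works with the origin recognition complex and is made afresh for each cycle, changed most among the 4. Its level was 3.43 [3.29 to 3.82] at e12.5, 1.68 [1.21 to 1.96] at e14.5, 0.28 [−0.23 to 0.50] at e17.5, −0.65 [−1.21 to −0.38] at P0 and −2.67 [−3.54 to −1.10] in the adult. The 4 stages up to P0 did not overlap each other, and the adult reached into the P0 range through 1 library. In the adult Cdc6 was 20.4-fold lower than at e14.5. Orc6, the smallest subunit of the origin recognition complex, changed least: 5.30 [5.13 to 5.42] at e12.5, 5.03 [4.93 to 5.19] at e14.5, 4.51 [4.27 to 4.87] at e17.5, 4.28 [4.06 to 4.50] at P0 and 3.70 [3.59 to 3.83] in the adult. Its adult range lay below every P0 library, yet the adult level was only 2.50-fold below e14.5. Orc1, the largest subunit of the same complex, was 8.89-fold lower in the adult than at e14.5, and Cdt1, which hands the helicase to the origin, 7.09-fold lower. Cdt1 differed widely among the 6 adult libraries, from −0.03 to 1.82 log2 RPKM. At e12.5 Orc6 exceeded Orc1 by median levels of 5.30 and 2.09, and in the adult by 3.70 and −2.52.

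All 6 subunits of the MCM helicase ring fell at e14.5, at e17.5 and in the adult, each time without overlap with the stage before. At P0, 3 of 6 did. Of all genes, 22.3% were lower at e14.5, 12.1% at e17.5, 6.28% at P0 and 25.2% in the adult by the same rule. Mcm3 was the subunit with the largest adult difference. It stood at 6.38 [6.24 to 6.60] at e12.5, 5.11 [4.68 to 5.36] at e14.5 and 3.48 [3.13 to 3.87] at e17.5, then at 2.91 [2.64 to 3.09] at P0 and 0.67 [0.48 to 2.16] in the adult. No neighbouring stages overlapped, with the narrowest gap between e17.5 and P0, and the adult was 21.7-fold below e14.5. Mcm4 changed least, with 5.99 [5.85 to 6.23] at e12.5, 4.65 [4.06 to 4.83] at e14.5, 3.61 [3.21 to 3.89] at e17.5, 3.28 [3.14 to 3.46] at P0 and 2.25 [2.03 to 2.68] in the adult. Its e17.5 and P0 ranges overlapped while the adult lay below both, 5.29-fold under e14.5. Mcm2, Mcm5, Mcm6 and Mcm7 were 14.3-, 9.22-, 12.6- and 10.4-fold lower in the adult than at e14.5. The subunits assemble in equal numbers, and at e12.5 their stage medians spanned 1.15 log2 units, from Mcm5 at 5.92 to Mcm7 at 7.07. In the adult they spanned 1.72, from Mcm3 at 0.67 to Mcm7 at 2.39.

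The activators of the ring fell about as far. Mcm10, which helps the loaded helicase to fire, stood at 4.17 [3.98 to 4.37] at e12.5, 2.74 [2.24 to 2.85] at e14.5, 1.07 [0.58 to 1.47] at e17.5, 0.31 [−0.21 to 0.57] at P0 and −1.64 [−2.25 to −0.04] in the adult. The 4 stages up to P0 were apart from each other, and 1 of the 6 adult libraries lay within the P0 range. Cdc45, part of the active helicase, changed least of these 4, with 4.69 [4.60 to 4.97] at e12.5, 3.58 [3.43 to 3.84] at e14.5, 2.59 [2.21 to 2.96] at e17.5, 2.10 [1.65 to 2.30] at P0 and 0.76 [−0.01 to 1.43] in the adult. Its adult libraries lay below all P0 libraries, 7.07-fold under the e14.5 median. Gins1 and Gins2, subunits of the GINS complex, were 16.1- and 13.2-fold lower in the adult than at e14.5. Of these 4, Gins1 varied most between adult libraries, from −1.19 to 1.83.

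Among the polymerase genes, the catalytic subunit of the leading-strand polymerase and that of the lagging-strand polymerase differed in the adult. Pole, which encodes the catalytic subunit of polymerase epsilon, stood at 3.83 [3.47 to 3.98] at e12.5, 2.38 [1.88 to 2.73] at e14.5, 1.44 [0.96 to 1.67] at e17.5, 0.95 [0.68 to 1.24] at P0 and −1.59 [−2.46 to 0.07] in the adult. Pold1, that of polymerase delta, stood at 4.76 [4.52 to 4.92] at e12.5, 3.96 [3.72 to 4.25] at e14.5, 2.68 [2.38 to 2.88] at e17.5, 2.22 [1.86 to 2.55] at P0 and 1.78 [1.47 to 2.28] in the adult. Pole in the adult lay below every P0 library and 15.7-fold below e14.5. Pold1 overlapped between adult and P0 and was 4.52-fold below e14.5, and most of its fall had happened by P0. Prim1, the small primase subunit, and Pola1, the catalytic subunit of polymerase alpha, were 5.96- and 6.39-fold lower in the adult than at e14.5, and both were lower than at P0.

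The clamp and its loader included the gene with the highest median at each of the 5 stages. Pcna, the ring that slides behind the fork, was the highest of the 39 genes at e12.5 and e14.5. Its level was 7.87 [7.65 to 7.99] at e12.5, 5.90 [5.78 to 6.24] at e14.5, 5.10 [4.84 to 5.42] at e17.5, 4.79 [4.36 to 4.88] at P0 and 4.12 [3.76 to 4.54] in the adult. Pcna had the largest difference of the group from e12.5 to e14.5, 3.92-fold lower, which coincides with the change of read layout. From P0 to the adult its ranges overlapped, with a median 1.58-fold lower, and in the adult it was the third in level after Rfc2 and Rpa1.

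The 5 subunits of replication factor C work as 1 complex and did not change alike. Rfc1, the large subunit, stood at 4.75 [4.66 to 4.95] at e12.5, 3.82 [3.67 to 3.96] at e14.5, 3.51 [3.38 to 3.66] at e17.5, 3.17 [2.95 to 3.32] at P0 and 3.45 [3.40 to 3.51] in the adult. Its adult libraries lay above every P0 library, 1.22-fold by medians, and 1.29-fold below e14.5. Rfc4 stood at 5.16 [4.84 to 5.31] at e12.5, 4.80 [4.42 to 5.24] at e14.5, 3.17 [2.75 to 3.69] at e17.5, 2.23 [1.70 to 2.94] at P0 and 1.66 [1.34 to 1.96] in the adult. Rfc4 had overlapping ranges at e12.5 and e14.5 and was 3.09-fold lower at e17.5 than at e14.5 with no overlap; its adult and P0 ranges overlapped. Rfc3 took the opposite course, with its largest difference after birth: 4.03-fold lower in the adult than at P0 with no overlap, after 1.16-fold from e17.5 to P0 with overlap. Rfc2, the highest of the 39 genes from e17.5 on, and Rfc5 were 2.20- and 2.34-fold lower in the adult than at e14.5. Within single libraries, Rfc1 minus Rfc3 was −1.89 to −1.32 (log2) at e14.5 and 0.03 to 1.34 in the adult, so their order reversed in each of the 6 adult libraries. The medians of the 5 loader subunits spanned 1.41 log2 units at e12.5 and 2.96 in the adult.

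Of the single-strand binding proteins, Rpa1 was higher in the adult than at P0, and Rpa2 overlapped. Rpa1, the large subunit of replication protein A, stood at 5.77 [5.56 to 5.95] at e12.5, 5.11 [4.70 to 5.18] at e14.5, 4.30 [4.15 to 4.55] at e17.5, 3.96 [3.75 to 4.13] at P0 and 4.35 [4.23 to 4.62] in the adult. The adult and P0 ranges were narrowly apart, at a difference of medians of 0.39, and with each library centred on its median they overlapped, at 0.32. Rpa2, the middle subunit, stood at 5.51 [5.25 to 5.62] at e12.5, 4.78 [4.53 to 5.19] at e14.5, 3.62 [3.11 to 3.79] at e17.5, 3.29 [2.99 to 3.44] at P0 and 3.12 [3.01 to 3.43] in the adult. Its adult range overlapped P0, and 90.1% of its log2 fall from e14.5 to the adult had happened by P0.

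The enzymes that finish Okazaki fragments moved in opposite directions after P0, Fen1 higher and Lig1 lower. Fen1, the nuclease that trims the displaced flap, stood at 5.32 [5.09 to 5.49] at e12.5, 4.36 [4.20 to 4.68] at e14.5, 3.09 [2.88 to 3.33] at e17.5, 2.67 [2.38 to 2.92] at P0 and 3.17 [3.02 to 3.38] in the adult. Lig1, the ligase that seals the nick, stood at 5.88 [5.78 to 6.11] at e12.5, 4.76 [4.50 to 5.06] at e14.5, 3.83 [3.60 to 4.07] at e17.5, 3.69 [3.56 to 4.13] at P0 and 2.07 [1.75 to 2.78] in the adult. Fen1 in the adult lay above every P0 library, 1.42-fold by medians, and Lig1 below every P0 library, 3.09-fold. The call for Fen1 was lost after quantile normalization, at a difference of 0.44. Within libraries, Fen1 minus Lig1 was −1.62 to −0.75 at P0 and 0.60 to 1.34 in the adult, a reversal of order in all 6 adult libraries.

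The deoxynucleotide genes fell furthest as a role, with a median adult difference from e14.5 of −4.72 (log2) over the 4. Rrm2, the small subunit of ribonucleotide reductase, which dividing cells make for S phase, stood at 7.56 [7.38 to 7.79] at e12.5, 5.75 [5.28 to 6.03] at e14.5, 4.34 [4.07 to 4.67] at e17.5, 3.67 [3.26 to 4.01] at P0 and 0.32 [−0.28 to 2.80] in the adult. It was the second highest gene of the 39 at e12.5, and its adult median was 42.8-fold below e14.5, the largest fall of the group with all 6 adult libraries; without adult library 1, Tk1 fell further, 55.5-fold against 46.8-fold for Rrm2. Rrm1, the large subunit of the same enzyme, stood at 6.74 [6.66 to 6.93] at e12.5, 5.73 [5.37 to 5.85] at e14.5, 4.64 [4.35 to 4.87] at e17.5, 4.05 [3.87 to 4.33] at P0 and 2.91 [2.50 to 3.85] in the adult, 7.03-fold below e14.5. Within libraries Rrm1 minus Rrm2 moved from −0.93 to −0.71 at e12.5 up to 1.05 to 2.97 in the adult. Tk1, the cytosolic thymidine kinase of S phase, was 40.2-fold lower in the adult than at e14.5, and Tyms, thymidylate synthase, 17.4-fold lower. Tk1 also had the largest difference of the group from e14.5 to e17.5, 3.87-fold lower with no overlap.

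Chromatin assembly factor 1 puts new histones behind the fork, and its subunits Chaf1a and Chaf1b parted after birth. Chaf1b stood at 5.05 [4.84 to 5.30] at e12.5, 4.16 [3.86 to 4.40] at e14.5, 3.51 [3.17 to 3.95] at e17.5, 3.56 [2.99 to 3.94] at P0 and −1.14 [−1.69 to 2.06] in the adult. Chaf1a stood at 5.12 [4.94 to 5.34] at e12.5, 3.92 [3.67 to 4.04] at e14.5, 3.17 [2.71 to 3.44] at e17.5, 2.96 [2.72 to 3.33] at P0 and 1.58 [1.33 to 2.42] in the adult. Chaf1b overlapped at e14.5 and e17.5 and at e17.5 and P0, and then had the largest difference of the 39 genes between P0 and the adult, 26.0-fold lower. Chaf1a fell 2.60-fold over the same step with no overlap. Chaf1a minus Chaf1b within a library was −1.05 to −0.21 at P0, with Chaf1b the higher in each, and 0.35 to 3.16 in the adult, with Chaf1a the higher in each.

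Of the 5 regulators of S-phase entry, 2 were lower, 2 higher and 1 overlapped from P0 to the adult. Of all genes, 25.2% were lower and 29.3% higher over this step, so counts out of 5 say little about this role. Of the lower pair, E2f2 lost its call after quantile normalization, where its difference was −0.51 in place of −1.73. E2f2, an activating E2F, stood at 3.0 [2.57 to 3.28] at e12.5, 1.77 [1.62 to 2.10] at e14.5, 0.30 [−0.22 to 0.68] at e17.5, −0.43 [−0.74 to 0.06] at P0 and −2.16 [−2.58 to −1.49] in the adult, 15.2-fold below e14.5. E2f1, another activating E2F, ran from 2.08 to 2.71 at P0 and from 2.80 to 3.21 in the adult, 1.47-fold higher by medians. It overlapped between adult and e14.5, although it was called lower there once libraries were centred or quantile normalized, at −0.40 and −0.42, or without adult library 5. Within libraries E2f1 minus E2f2 was 1.36 to 1.73 at e14.5 and 4.40 to 5.49 in the adult.

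Ccne1, cyclin E1, which drives Cdk2 at the start of S phase, was the 1 gene with a higher adult than e14.5 median. It stood at 4.14 [3.78 to 4.25] at e12.5, 2.87 [2.53 to 3.27] at e14.5, 2.31 [2.14 to 2.40] at e17.5, 2.16 [1.81 to 2.37] at P0 and 3.40 [3.0 to 3.58] in the adult. Adult libraries lay above all P0 and all e17.5 libraries, 2.37-fold over the P0 median, and overlapped e14.5. Ccne2, cyclin E2, stood at 0.10 [−0.26 to 0.31] in the adult, at 0.60 [0.09 to 0.90] at P0 and at 1.50 [1.30 to 1.81] at e14.5; its adult range overlapped P0 and lay below e14.5. Cdk2, the kinase partner of both cyclins, was at 6.90% of its e14.5 median in the adult and lay below every P0 library. Ccne1 minus Cdk2 within libraries was −1.14 to −0.82 at e14.5 and 1.81 to 3.83 in the adult.

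**Figure D2:**
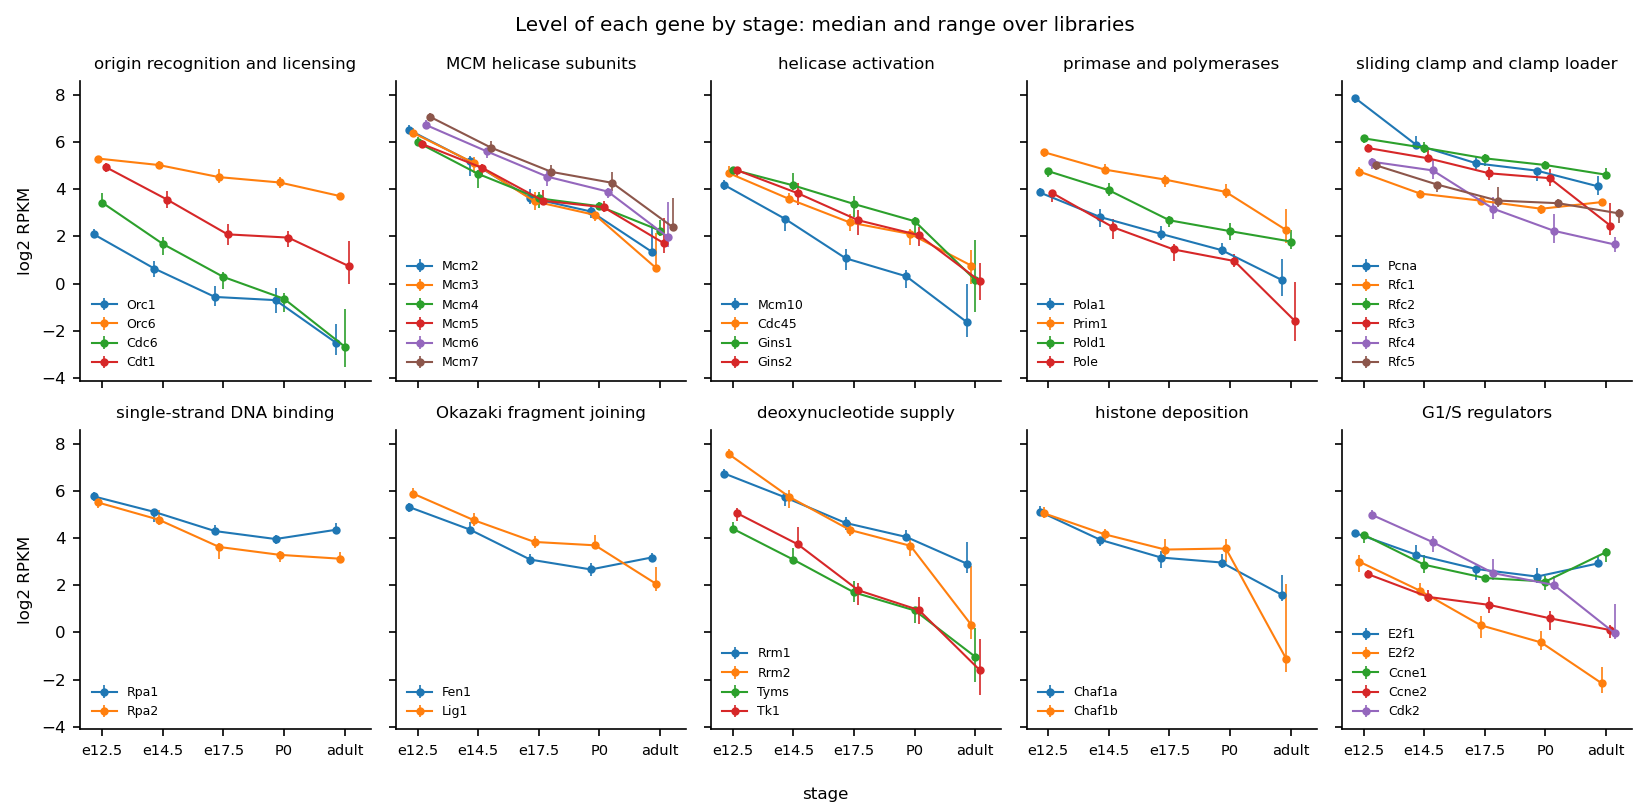
Log2 RPKM of each of the 39 genes at the 5 stages, in a panel for each of the 10 roles; points are stage medians, bars run from the lowest to the highest library and are not errors of the mean. Medians are lower at each stage up to P0 except Chaf1b between e17.5 and P0, and after P0 those of Rfc1, Rpa1, Fen1, E2f1 and Ccne1 turn upward while those of Chaf1b and Rrm2 drop steeply.

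In the adult, 4 genes kept over 50% of their e14.5 median: Ccne1 with 145%, Rfc1 with 77.8%, E2f1 with 76.8% and Rpa1 with 59.2%. Another 7, Rfc2, Fen1, Rfc5, Orc6, Ccne2, Rpa2 and Pcna, kept 25 to 50%, 13 kept 10 to 25% and 15 kept under 10%. These shares were not counted over all genes, so the counts have no background. The median difference of all genes over this step was −0.10 (log2). Counted from the most negative difference, Ccne1, Rfc1, E2f1 and Rpa1 stood at percentiles 69.3, 40.7, 40.0 and 27.3 of all genes. The highest adult medians were Rfc2 at 4.61 log2 RPKM, Rpa1 at 4.35, Pcna at 4.12, Orc6 at 3.70 and Rfc1 at 3.45. Neighbours in this order overlapped, except that the Orc6 libraries (3.59 to 3.83) all lay above those of Rfc1 (3.40 to 3.51). At the other end, 9 genes had adult medians below 0, that is under 1 RPKM: Cdc6, Orc1, E2f2, Mcm10, Tk1, Pole, Chaf1b, Tyms and Cdk2. In 5 of these 9 every adult library was below 0. No gene was below 0 at e12.5 or e14.5, 1 (Orc1) was at e17.5 and 3 (Orc1, Cdc6 and E2f2) were at P0.

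The timing of the fall differed between genes. For the 34 genes with a lower adult than P0 median, the share of the log2 difference from e14.5 to the adult that was in place at P0 ran from 11.3% in Chaf1b to 90.1% in Rpa2, with a median of 52.4%. It was over 50% in 20 genes and at most 50% in 14. Rfc4, with 81.6%, and Pold1, with 79.8%, stood beside Rpa2 at the early end. Rfc3, with 29.4%, Pole, with 36.0%, and Prim1, with 36.9%, stood beside Chaf1b at the late end. Rfc3 and Rfc4, subunits of 1 complex with similar adult differences of −2.85 and −3.14, were thus at opposite ends. Within libraries Rfc3 exceeded Rfc4 by 0.34 to 0.78 (log2) at e14.5, by 1.52 to 2.47 at P0 and by 0.34 to 1.48 in the adult.

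**Figure D3:**
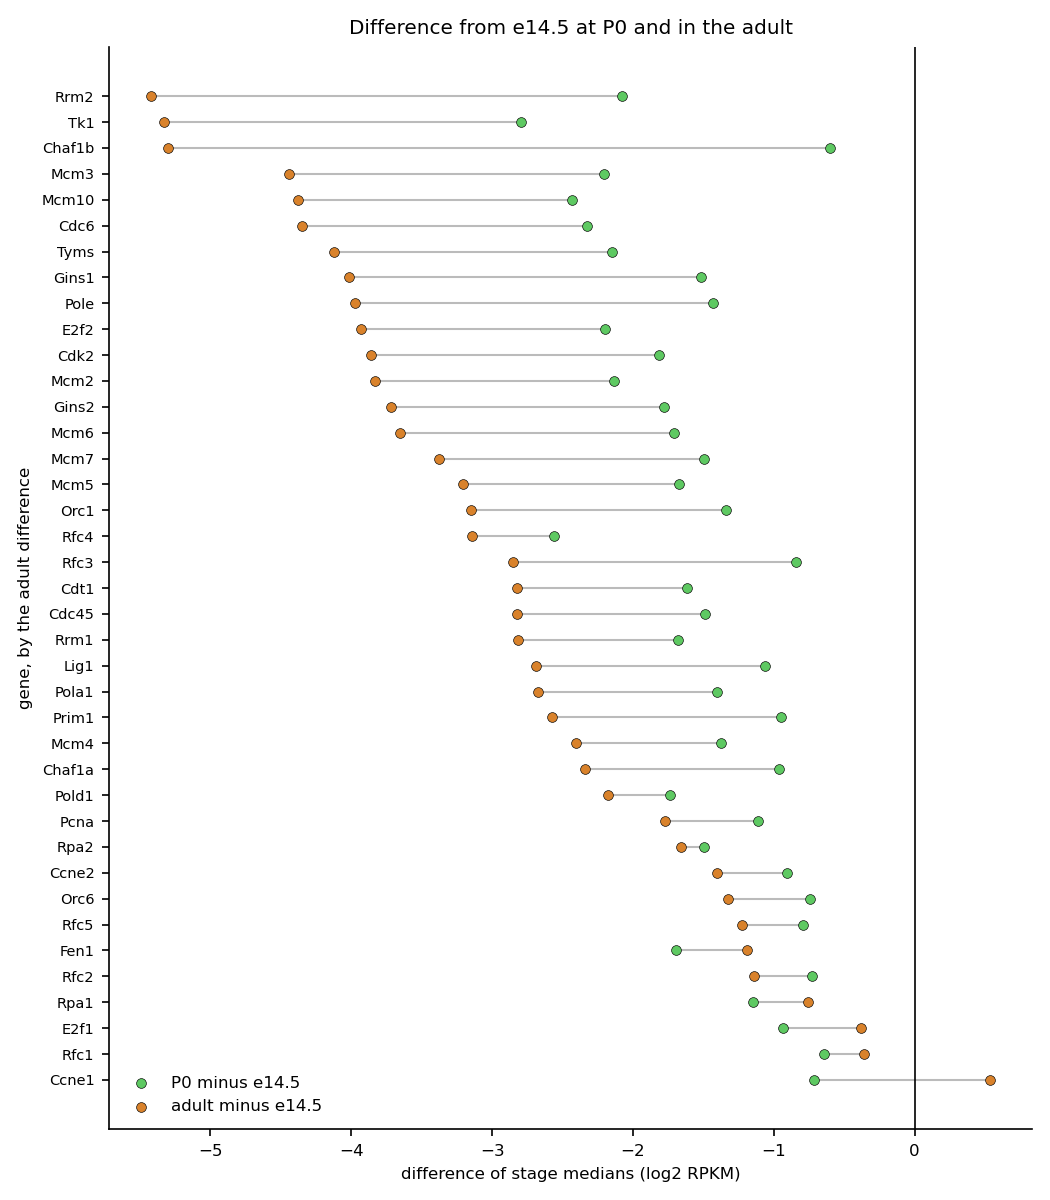
Difference of stage medians from e14.5 (log2 RPKM, horizontal axis) for each of the 39 genes (vertical axis, in order of the adult difference): green points at P0, orange points in the adult, joined by a line for the change after birth. Chaf1b has the longest line, from −0.60 to −5.30, Rpa2 a short one from −1.49 to −1.66, and 5 genes, Fen1, Rpa1, E2f1, Rfc1 and Ccne1, have the orange point to the right of the green one.

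Adult library 1 stood apart from the other 5 adult libraries. Its value lay above all the others in 30 of the 39 genes, within their range in 6 (Orc6, Cdt1, Rfc1, Rfc4, Rpa2 and E2f1) and below it in 3 (Rpa1, Ccne1 and Ccne2). The share of all genes placed this way was not computed, so these counts have no background and may reflect a difference of the whole library. The largest gap was in Chaf1b, at 2.06 log2 RPKM in library 1 and −1.69 to −0.65 in the others, or 9.37-fold the median of the others. Rrm2 followed at 2.80 against −0.28 to 0.87, 6.08-fold. The median deviation of the 39 genes from their stage medians was 0.81 in this library, −0.07 to 0.04 in the other adult libraries and −0.23 to 0.24 in the 38 libraries of the earlier stages. The 10 mitosis markers (Mki67, Top2a, Ccnb1, Cdk1, Bub1, Aurkb, Cenpf, Plk1, Cdc20 and Kif11) summed to 29.4 RPKM in it and 3.40 to 4.38 in the others. The 6 markers of new neurons summed to 1528 RPKM against 519 to 624, and the 6 myelin markers to 764 against 1087 to 2015. Markers of mature neurons summed to 3090 against 4048 to 5082, and those of radial glia and neural stem cells to 586 against 227 to 346. Microglia markers summed to 96.6 against 137 to 175. The part of these cell types in the deviation was not tested.

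Without adult library 1, Cdc6, Mcm10 and Pcna also lay below all P0 libraries, which gave 29 genes lower than at P0, and the same 5 genes were higher. The background of 25.2% lower and 29.3% higher is for all 6 adult libraries, and leaving 1 out can only add calls. Against e14.5 the fall of Rrm2 came to 46.8-fold, that of Tk1 to 55.5-fold and that of Chaf1b to 40.0-fold. The genes above all other adults in this library included Pcna and Fen1, whereas Rfc1 was at 3.46 against 3.40 to 3.51. Thus 4 of the 5 genes that were higher in the adult than at P0 were within or below the range of the other adults in library 1, and Fen1, at 3.38 against 3.02 to 3.26, was above it.

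**Figure D4:**
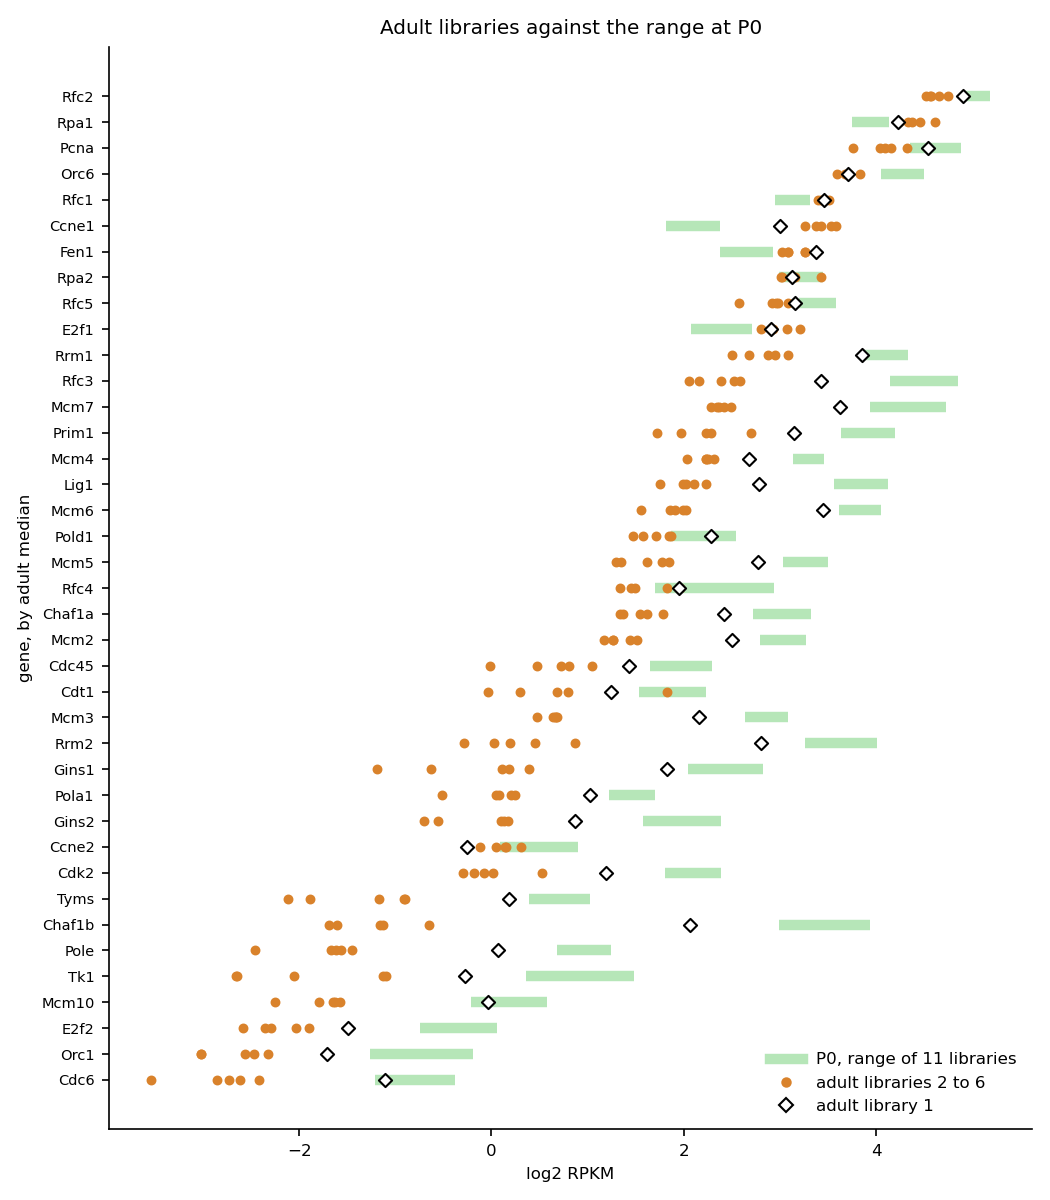
Log2 RPKM (horizontal axis) of each gene (vertical axis, by adult median) in the 6 adult libraries, with adult library 1 as an open diamond, over a green bar for the range of the 11 P0 libraries. The diamond lies right of the orange points in 30 genes, and all adult symbols lie right of the bar for Rpa1, Rfc1, Ccne1, Fen1 and E2f1.

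Mitosis markers fell with the replication genes. Their summed level was 616 to 757 RPKM at e12.5, 184 to 311 at e14.5, 63.2 to 103 at e17.5, 32.0 to 61.5 at P0 and 3.40 to 29.4 in the adult, and 10 of 10 were lower in the adult than at e14.5, with a median difference of −6.54 (log2). In the adult Mki67 had a median of −2.08 log2 RPKM and Bub1 one of −3.59. The replication genes' own median difference over the same step was −2.83. Of 10 radial glia and neural stem cell markers 8 were lower and 1 higher, and of 6 intermediate progenitor markers 6 were lower. Over this step 32.4% of all genes were lower and 30.8% higher. In the same step 6 of 6 mature neuron, 6 of 6 astrocyte, 5 of 5 oligodendrocyte precursor, 5 of 6 myelin and 5 of 6 microglia markers were higher; the sixth of each was not in the table or did not pass the filter. The part of these changes in cell makeup in the replication genes' fall was not tested. Libraries of 1 stage differed in both, but not always together. At e14.5, library 2 had the lowest mitosis sum, 184 RPKM, and the lowest median deviation of the 39 genes, −0.23. Library 6 had the highest sum, 311, and a deviation of 0.19. Library 7 had a sum of 294 and the highest deviation, 0.24, whereas library 1 had a sum of 295 and a deviation of −0.05. How the 2 measures vary together within a stage was not tested.

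**Figure D5:**
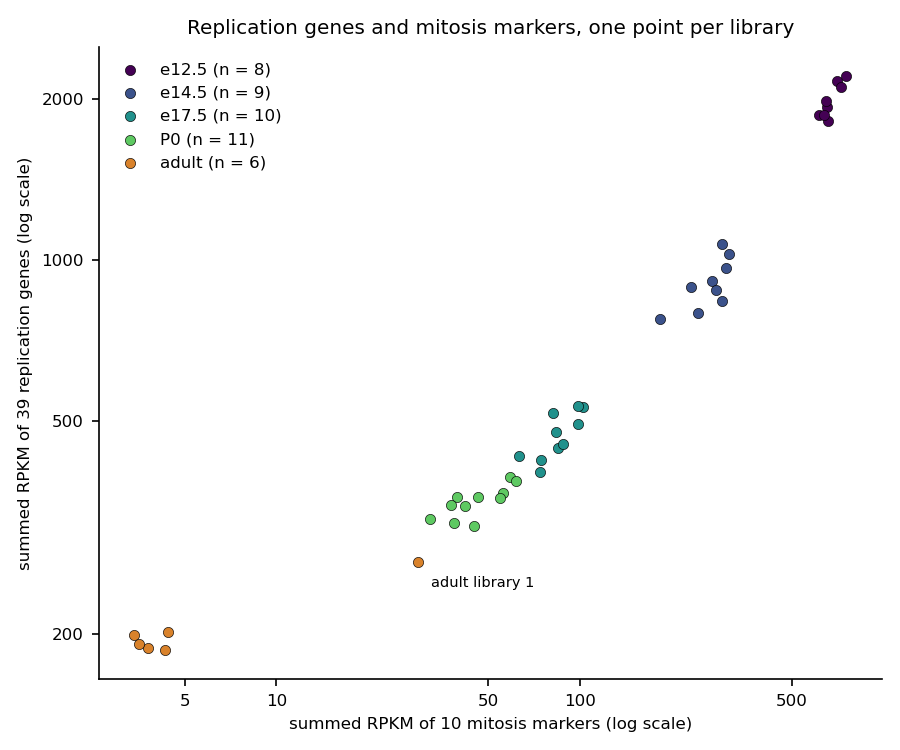
Summed RPKM of the 39 replication genes (vertical axis) against that of the 10 mitosis markers (horizontal axis), both on log scales, with 1 point per library coloured by stage. Stages run down from e12.5 at the upper right to the adult at the lower left, and adult library 1, at 29.4 and 273 RPKM, lies between the P0 and the other adult points.

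Other genes of the pathway were taken from 4 lists. Of all genes, 32.4% were lower and 30.8% higher in the adult than at e14.5. Against P0 the shares were 25.2% lower and 29.3% higher. Of 36 other replisome and origin genes, 31 were lower and 0 higher in the adult than at e14.5, with a median difference of −1.63 (log2). The most negative were Ticrr, a factor for helicase activation, at −6.24 and Dscc1, part of an alternative clamp loader, at −4.61. At the other end Orc5, a subunit of the origin recognition complex, differed by −0.21 with no overlap, and Pold4, a small subunit of polymerase delta, by 0.14 with overlap. Between P0 and the adult 18 of these 36 were lower and 2 higher, Orc2 by 0.31 and Rnaseh2a by 0.50; this pair was named after the values were seen. Orc2 had an adult median of 3.43 log2 RPKM, beside 3.70 for Orc6 and −2.52 for Orc1.

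Of 10 other nucleotide supply genes, 7 were lower and 1 higher in the adult than at e14.5, with a median of −1.27. Shmt1, which supplies one-carbon units, differed by −2.66. Tk2, the mitochondrial thymidine kinase, differed by 0.05 with overlap. Rrm2b, the small reductase subunit that serves cells outside S phase, was higher by 1.18 with no overlap, the reverse of Rrm2. Its adult median of 3.09 log2 RPKM exceeded the 0.32 of Rrm2, whereas at e14.5 the medians were 1.91 and 5.75.

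All 8 other genes of replication-coupled chromatin were lower in the adult than at e14.5, with a median of −2.87. Uhrf1, which guides maintenance DNA methylation, differed by −5.82 and the remodeller Hells by −4.40. The least changed were Slbp, the histone mRNA stem-loop binder, at −1.60 and the histone chaperone Rbbp4 at −1.45. Among 22 of 23 other G1/S regulators that the table held, 15 were lower and 1 higher, with a median of −1.55. Ccna2, cyclin A2, differed by −5.73 and the repressor E2f7 by −5.10. Rbl2, a retinoblastoma relative found in resting cells, was higher by 0.69 with no overlap, and Cdkn1a, a Cdk inhibitor, differed by 0.77 with overlap. From P0 to the adult 5 of the 22 were higher and 10 lower, where 29.3% of all genes were higher and 25.2% lower. The 5 higher genes are thus no more than that share of all genes would give.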

How the data were processed

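PolyA RNA-seq of bulk forebrain was deposited as 1 table of log2 RPKM values, made by the authors, with 12158 genes in 44 columns. The submitters' processing notes name STAR 2.4.2a, BWA 0.7.13, MACS2 2.10, bcl2fastq and mm9 without roles; the counter, annotation, gene filter, scaling and prior count are not stated in the sources used here. Base 2 was checked on 57 low genes of 20 e14.5 and P0 libraries. Steps of whole reads (within 0.05) took a median of 75.9% of low values in base 2 and 47.2% in base e. Of these 20 libraries, base 10 left enough usable low values only in e14.5 libraries 3, 4 and 5. There it took 38.9%, 78.9% and 60% of them, against 83.9%, 78.1% and 75.9% in base 2. In library 4 the check did not separate base 10 from base 2. In the 10 e17.5 libraries the check did not separate the bases (22.5 to 34.6% in base 2, 24.0 to 43.8% in base e). The adult libraries had too few usable low values for the check. Base 2 is therefore assumed at e17.5 and in the adult. Total reads are unknown, so no counting interval is given. Stage was read from the column names; 0 columns matched a single record, so genotype was not assigned. Libraries are numbered within a stage in table order. Stage medians and ranges were computed with pandas 2.3.3 for 12102 genes with a mean above −2, after the range rule was tested on simulated data. The members, roles, lists and the rule for the genes given in full (in each role the most and least negative adult minus e14.5 difference, Pcna, and up to 4 genes per pathway list) were chosen with earlier results of these data known. Some listed genes are not reported here. The authors' list of Chd8 ChIP peaks in adult forebrain was not used here. Alternatives were leaving out libraries, median centring, quantile normalization, no filter and a difference of at least 1.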

Additional observations from a re-analysis of the deposited data

Results flagged for a closer look

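In each group of 6 to 10 libraries, the highest or lowest value of each replication gene was compared with its neighbour by Dixon's criterion; the 11 P0 libraries were not searched. Of 160 sets 15 stood out, where about 8 arise by chance (1 in 20). Of these, 9 were in adult library 1, the highest of the 6 adult libraries for Mcm2 at 2.50 log2 RPKM (next 1.51), Mcm3 at 2.16 (0.68), Mcm5 at 2.77 (1.84), Mcm6 at 3.45 (2.02), Mcm7 at 3.63 (2.49), Mcm10 at −0.0369 (−1.58), Rrm2 at 2.80 (0.87) and Chaf1b at 2.06 (−0.65), and for the median deviation of the 39 genes at 0.81 (0.04). The mitosis and new neuron markers were also highest in this library, and their part was not tested.

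The other 6 were in different libraries. Mcm4 was lowest in e17.5 library 10 at 3.21 (next 3.54), Rpa2 in e17.5 library 9 at 3.11 (3.50) and E2f1 in e17.5 library 6 at 2.21 (2.50). E2f2 was lowest in e12.5 library 4 at 2.57 (2.95). Gins1 was highest in e14.5 library 7 at 4.68 (4.25) and Rpa2 in adult library 4 at 3.43 (3.16).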

How the results depend on the processing

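The planned limma comparison of Het with WT within each stage was not run, because no label assigns a library to a genotype. No paired analysis was possible because the columns carry no replicate number that the labels explain. Under median centring, quantile normalization and no filter, each count of lower or higher genes stayed within 1.5 times its value. The 4 counts that moved further came from the settings below. With medians also at least 1 apart, which by construction can only lower a count, 21 genes were lower at e17.5 than at e14.5. Under the same setting 0 were lower at P0 than at e17.5 and 1 (Ccne1) was higher in the adult than at P0. With the e17.5 libraries numbered S158 to S163 alone, 20 were lower at P0 than at e17.5 (11 with S1 to S5 alone). That setting was added after seeing the data. Of the 39 genes 0 were apart between these number series, as against 1 of all 12102 genes, so the 0 says little about these genes. Leaving out 1 library at a time gave 34 to 38, 35 to 37, 11 to 14, 26 to 29 and 37 to 38 lower genes for the 5 comparisons in the order of the report, 5 to 5 higher in the adult than at P0 and 0 to 0 higher in the others; the range rule can only gain calls this way. E14.5 library 7 added Orc6, Gins1, Rfc2 and Rfc3 when left out, and e17.5 library 6 added Pcna, Fen1 and Ccne2 to P0 against e17.5. Single genes were followed only in the comparisons of the adult with P0 and with e14.5. Leaving out libraries entered there only through the runs with the lowest and the highest difference. Of these gene results, 450 kept their call, 13 lost it and 5 gained it, and none reversed. With quantile normalization Orc1 at −0.43 and E2f2 at −0.51 overlapped between adult and P0. The median of all genes between adult and e14.5 was −0.10 as deposited, −0.13 centred and −0.19 after quantile normalization. Unknown depth leaves the error of low values, such as those of Cdc6 and Orc1 in the adult, without an estimate.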
